A study of Mus musculus with 16 samples.

Results

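Mitochondrial ribosomal proteins were followed as messenger RNAs in whole mouse hearts. Members were all genes of the deposited table whose symbols begin with Mrpl or Mrps and a digit, which gave 78 of 18346 genes: 49 named for the large subunit and 29 named for the small subunit. All 78 passed the filter on low counts, with expected counts of 159 to 3902 per gene and library. Bulk RNA was sequenced from KO_Aged, WT_Aged, KO_Young and WT_Young hearts, 4 hearts per group and 16 in all, from separate animals per the labels. KO_Aged and KO_Young animals carried a systemic Armh4 knockout and were 25 months and 8 weeks old. WT_Aged and WT_Young animals were wild type and were 25 months and 8 weeks old, and the design text gives the strain of the normal mice as C57BL/6J. No promoter, cell type restriction, sex, cage or sequencing batch was given in the sources used here, and hearts are named by group and animal number.

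The mitochondrial ribosome translates the few messages that mitochondrial DNA keeps, which encode core subunits of the respiratory chain and ATP synthase. Its ribosomal RNAs come from mitochondrial DNA, but its proteins are encoded in the nucleus, made in the cytosol and imported. The small subunit decodes the message and the large subunit joins amino acids and releases the chain towards the inner membrane. Heart muscle is rich in mitochondria and depends on this machinery. Mrps18a and Mrps30 carry small subunit names although their products sit in the large subunit, and they are counted here by symbol. The mitochondrially encoded RNAs were not analysed here.

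Promoter sequences are shown for the genes whose changes with age are described below and whose upstream stretch held a searched motif, so that the stretch can be read beside the values. Each is the 150 bases before the annotated start in RefSeq on build GRCm38.p6, in the direction of the gene. Capitals mark a match to 1 of 3 motifs: GCGC, any base, then TGCGC, which nuclear respiratory factor 1 (NRF1) binds; CCGGAAG, which ETS factors such as GABP bind; and AAGATGG, which YY1 binds, each searched on both strands. The Mrpl45 stretch is chr11:97315566-97315715 on the plus strand, the Mrpl39 stretch is chr16:84735245-84735394 on the minus strand and the Mrpl57 stretch is chr14:57826089-57826238 on the plus strand, with NRF1 matches. The Mrps27 stretch is chr13:99344636-99344785 on the plus strand and the Mrpl34 stretch is chr8:71464776-71464925 on the plus strand, with ETS matches.
Mrpl45 promoter: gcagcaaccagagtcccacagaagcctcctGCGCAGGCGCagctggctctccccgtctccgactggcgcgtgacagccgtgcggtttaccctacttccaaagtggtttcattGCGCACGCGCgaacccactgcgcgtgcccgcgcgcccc
Mrpl39 promoter: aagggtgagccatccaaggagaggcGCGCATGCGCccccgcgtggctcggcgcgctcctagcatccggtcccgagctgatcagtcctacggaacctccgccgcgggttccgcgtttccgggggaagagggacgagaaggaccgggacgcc
Mrpl57 promoter: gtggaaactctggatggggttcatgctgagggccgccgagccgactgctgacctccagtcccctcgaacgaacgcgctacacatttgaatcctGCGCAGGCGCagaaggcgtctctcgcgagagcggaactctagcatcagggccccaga
Mrps27 promoter: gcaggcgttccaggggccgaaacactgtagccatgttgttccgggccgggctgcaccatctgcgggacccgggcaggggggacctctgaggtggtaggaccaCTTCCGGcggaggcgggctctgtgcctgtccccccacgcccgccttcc
Mrpl34 promoter: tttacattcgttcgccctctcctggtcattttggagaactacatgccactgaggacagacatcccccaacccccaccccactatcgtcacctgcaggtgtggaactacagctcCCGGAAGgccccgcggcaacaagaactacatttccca
Mrpl16 and Mrpl47 had no match in the same stretch, which says only that these letters are not there. In the wider window of 250 bases before to 50 after the start, 69 members had a RefSeq promoter. The NRF1 motif was in 13 of them (18.8%) and in 7.96% of the 14358 promoters of genes in the table. The ETS motif was in 25 of the 69 (36.2%) and in 14.2% of the 14358, and the YY1 motif was in 13 (18.8%) and in 6.44%. At least 1 of the 3 was in 42 of 69 member promoters (60.9%) and in 25.5% of the table's promoters, and matches of different motifs shared letters in 0 of the 69. A match is a run of letters and was not tested as a binding site. In the GENCODE M21 annotation of the same build, 18 of the 78 genes (23.1%) had the start of a protein-coding gene on the other strand within 1000 bases, against 7.98% of 17299 genes. Mrpl57 and the spindle gene Ska3 start 49 bases apart, and Mrps27 and Ptcd2, a pentatricopeptide gene of mitochondrial RNA handling, start 81 bases apart.

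The targeted gene was checked first. Armh4 averaged 1.14 ± 0.368 CPM (counts scaled to library size) in KO_Aged hearts and 18.5 ± 1.94 CPM in WT_Aged hearts (SD, n = 4 each). It averaged 0.374 ± 0.198 CPM in KO_Young hearts and 15.5 ± 2.49 CPM in WT_Young hearts, and every KO heart was below every WT heart. Libraries held 11456503 to 13298660 counts. The 10 cardiomyocyte markers, such as Tnnt2 and Myh6, were present in each heart, with summed levels of 105300 to 128800 CPM. The 6 atrial markers, such as Myl7 and Sln, summed to levels that ranged from 183 to 683.7 CPM in KO_Aged hearts, 164.7 to 527.8 CPM in WT_Aged hearts, 275.2 to 690.8 CPM in KO_Young hearts and 256.6 to 479.1 CPM in WT_Young hearts. Myl7 had 39.4, 19.96, 3.12 and 0.323 CPM in KO_Aged hearts, against 0.243, 0.238, 0.153 and 0 CPM in WT_Aged hearts, without overlap (adjusted p = 0.259, edgeR). Myl4 had 66.9, 48.5, 7.31 and 2.34 CPM in KO_Aged hearts, against 2.51, 2.06, 1.53 and 2.96 CPM in WT_Aged hearts, with a log2 change of 3.79 ± 1.22 (adjusted p = 0.228, edgeR). Of the 5 tested atrial markers 0 were called between KO_Aged and WT_Aged hearts and 4 had an unadjusted p under 0.05. Between KO_Young and WT_Young hearts 5 of 5 had a log2 change above 0 and 0 were called. In KO_Aged hearts 1 of 7 macrophage, 2 of 3 tested neutrophil and 1 of 2 tested T and NK cell markers were called lower than in WT_Aged hearts (0.710% of all genes tested). All 7 macrophage markers were below 0, with a median log2 change of -0.52, and 6 had an unadjusted p under 0.05 in edgeR. They summed to 261.9 to 265.3 CPM in KO_Aged and 334.2 to 456.7 CPM in WT_Aged hearts. Of 7 fibroblast markers 6 were above 0 (median 0.21) and all 5 erythroid markers were below 0 (median -0.60), with 0 called. The part of atrial, immune, fibroblast and erythroid cell RNA in the results between genotypes was not tested.

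Levels per length are given as FPKM (fragments scaled to transcript length and library size), which allow genes to be compared with each other. Mrpl42, a large subunit protein, was highest at 678 ± 57.9 FPKM over the 16 hearts (SD). Mrps21, a small subunit protein with a bacterial homologue, followed at 389 ± 42.4 FPKM. Mrpl30 averaged 313 ± 39.4 FPKM and Mrpl33, another large subunit protein with a bacterial homologue, 283 ± 47.2 FPKM. Their ranges over hearts overlapped (264.5 to 414 FPKM for Mrpl30 and 215 to 404 FPKM for Mrpl33), so the order of these neighbours was within their spread. Mrpl12, which forms the stalk that recruits translation factors, averaged 235 ± 21.8 FPKM, again within the range of Mrpl33. The order depends on length: Mrps21 and Mrpl33 have short apparent transcripts, near 218 and 201 bases, and Mrpl12 one near 715 bases. In CPM, not scaled by length, Mrps21 had 74.0 to 108.9 and Mrpl33 46.0 to 78.3, below the 142.6 to 204.1 of Mrpl12. The median member was at 59.2 FPKM, and the quartiles were 39.4 and 98.4 FPKM. By symbol, the median was 62.7 FPKM for the large subunit and 52.97 FPKM for the small subunit.

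The 3 lowest members were named for the large subunit, and the small subunit gene Mrps25 came next at 11.6 FPKM. Mrpl17 averaged 6.63 ± 0.447 FPKM, Mrpl19 8.30 ± 0.895 FPKM and Mrpl57 10.3 ± 0.972 FPKM (SD, 16 hearts). Mrpl17 and Mrpl19 each have a long apparent transcript, near 6444 and 4750 bases, computed from the ratio of counts to FPKM. They still had at least 475 and 393.73 counts in each library, so their low rank does not rest on few reads. The 5 highest members were the same in all 4 groups, as were the 5 lowest, and 61 of 78 members moved by 5 places or fewer between any 2 groups.

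The ranking also separates relatives. Mrps18c, Mrps18a and Mrps18b are paralogs that descend from 1 bacterial protein. They averaged 123, 94.05 and 38.7 FPKM over the 16 hearts. Mrps36, which is also known as a subunit of the 2-oxoglutarate dehydrogenase complex, averaged 152 ± 13.0 FPKM. Mrpl45, which holds the ribosome to the inner membrane at the tunnel exit, averaged 39.3 FPKM.

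**Figure D1:**
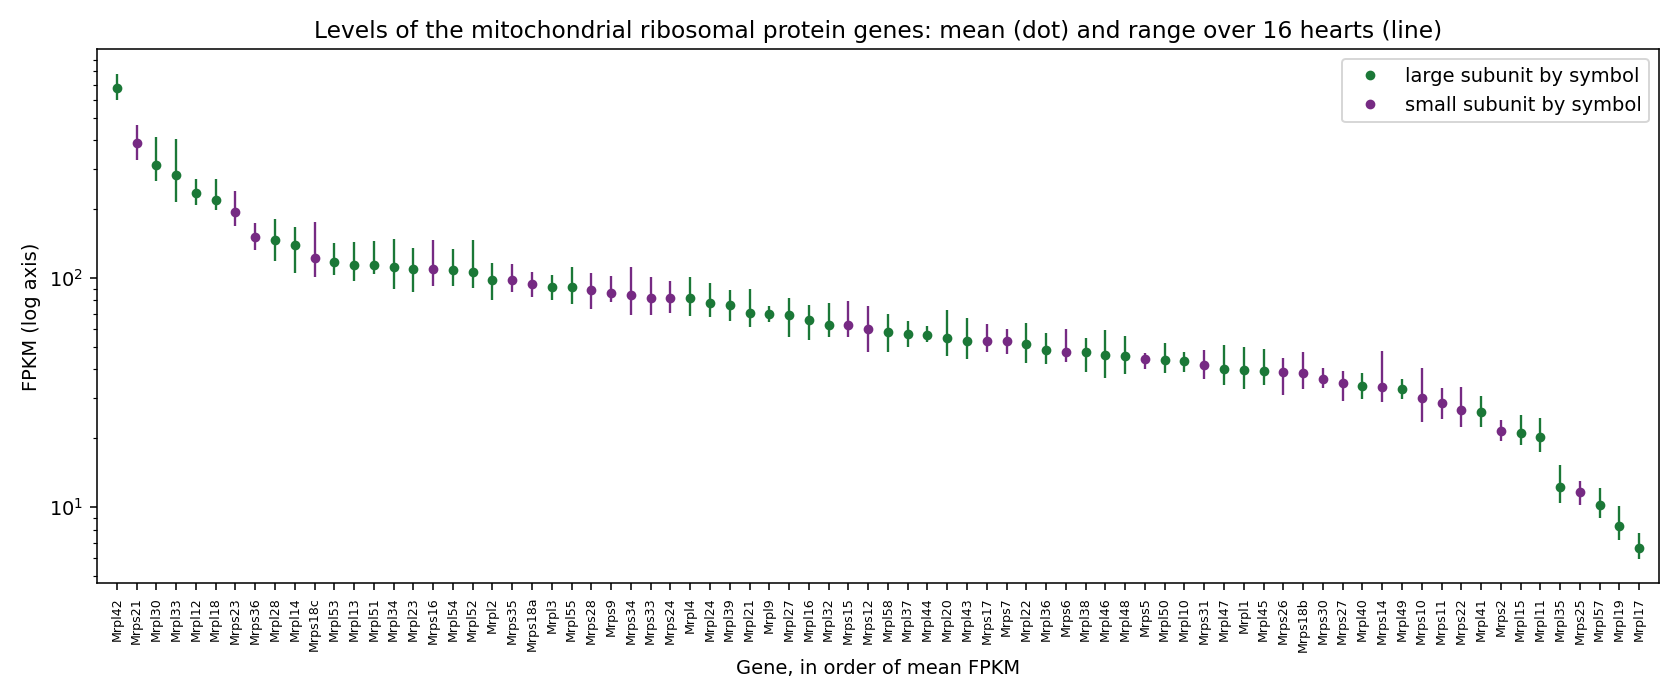
Levels of the 78 genes in FPKM on a log axis, in order of the mean over 16 hearts; dots are means and lines run from the lowest to the highest heart, green for Mrpl and purple for Mrps symbols. Mrpl42 stands at the top with 678 FPKM and Mrpl17 at the bottom with 6.63 FPKM.

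The members moved together from heart to heart within each group. After group means were removed, 57.9% of their variance in log2 CPM lay on 1 component, on which 76 of 78 members pointed the same way. The exceptions were Mrpl10, which holds the stalk formed by Mrpl12, and Mrpl49. Among 3003 pairs of members, 2789 deviated in the same direction (positive correlation over hearts that share libraries, given as a description), with a median of 0.52. The 85 tested nuclear-encoded respiratory chain genes had 53.4% of their variance on their own first component. The median SD within groups was 0.13 for members and 0.17 for all genes tested on the log2 scale.

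Single hearts carried much of this shared movement. WT_Young_29 was the highest heart of its group at 62 of 78 members, against 32.7% of all genes tested. WT_Aged_1 was highest at 61 members (34% of all genes) and KO_Young_53 at 56 (27.1% of all genes). Among the KO_Aged hearts, KO_Aged_125 was highest at 41 members (26.7% of all genes) and KO_Aged_122 at 27 (34.6% of members, 26.6% of all genes). Members took 0.476% to 0.492% of counts in KO_Aged hearts, 0.461% to 0.560% in WT_Aged hearts, 0.455% to 0.518% in KO_Young hearts and 0.460% to 0.534% in WT_Young hearts. All 4 ranges overlapped.

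A member score, the mean over the 78 genes of log2 CPM minus each gene's mean over the 16 hearts, puts this in 1 number per heart. It averaged -0.04 ± 0.05 in KO_Aged hearts, -0.02 ± 0.12 in WT_Aged hearts, 0.05 ± 0.10 in KO_Young hearts and 0.02 ± 0.08 in WT_Young hearts (SD, n = 4 each). The ranges of the 4 groups overlapped: -0.10 to 0.01, -0.13 to 0.15, -0.04 to 0.17 and -0.06 to 0.13 in that order of groups. Large and small subunit scores followed each other, for example 0.17 and 0.17 in KO_Young_53, 0.14 and 0.16 in WT_Aged_1, and -0.13 and -0.13 in WT_Aged_12.

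The hearts with the highest member scores were also those with the lowest levels of long transcripts. The highest scores were 0.17 in KO_Young_53, 0.15 in WT_Aged_1, 0.13 in WT_Young_29 and 0.09 in KO_Young_31. Over the tested genes outside the family with an apparent transcript over 4000 bases, the same score was -0.12, -0.09, -0.05 and -0.05 in those hearts, the 4 lowest of the 16. The median apparent length was 787 bases for members and 2753 bases for all genes tested. The 9 members of longest apparent transcript had 2080 bases (Mrpl57) or more. WT_Aged_1 and WT_Young_29 were each the highest heart of their group at 8 of these 9, KO_Young_53 at 5 and KO_Young_31 at 4. A score over tested genes outside the family under 1000 bases was 0.09 in KO_Young_53 and 0.27 in WT_Aged_1, ranks 2 and 1 of 16. It was 0.03 in both WT_Young_29 and KO_Young_31, ranks 6 and 7. The same 4 hearts had the 4 highest deposited FPKM totals, and cytosolic ribosomal protein scores of 0.16, 0.38, 0.13 and 0.08. The part that transcript length or RNA quality plays in the member levels was not tested. Calls lost without these 4 hearts are given beside the results. Since the 4 also have the highest member scores, leaving them out lowers the mean member level of the groups that hold them.

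**Figure D2:**
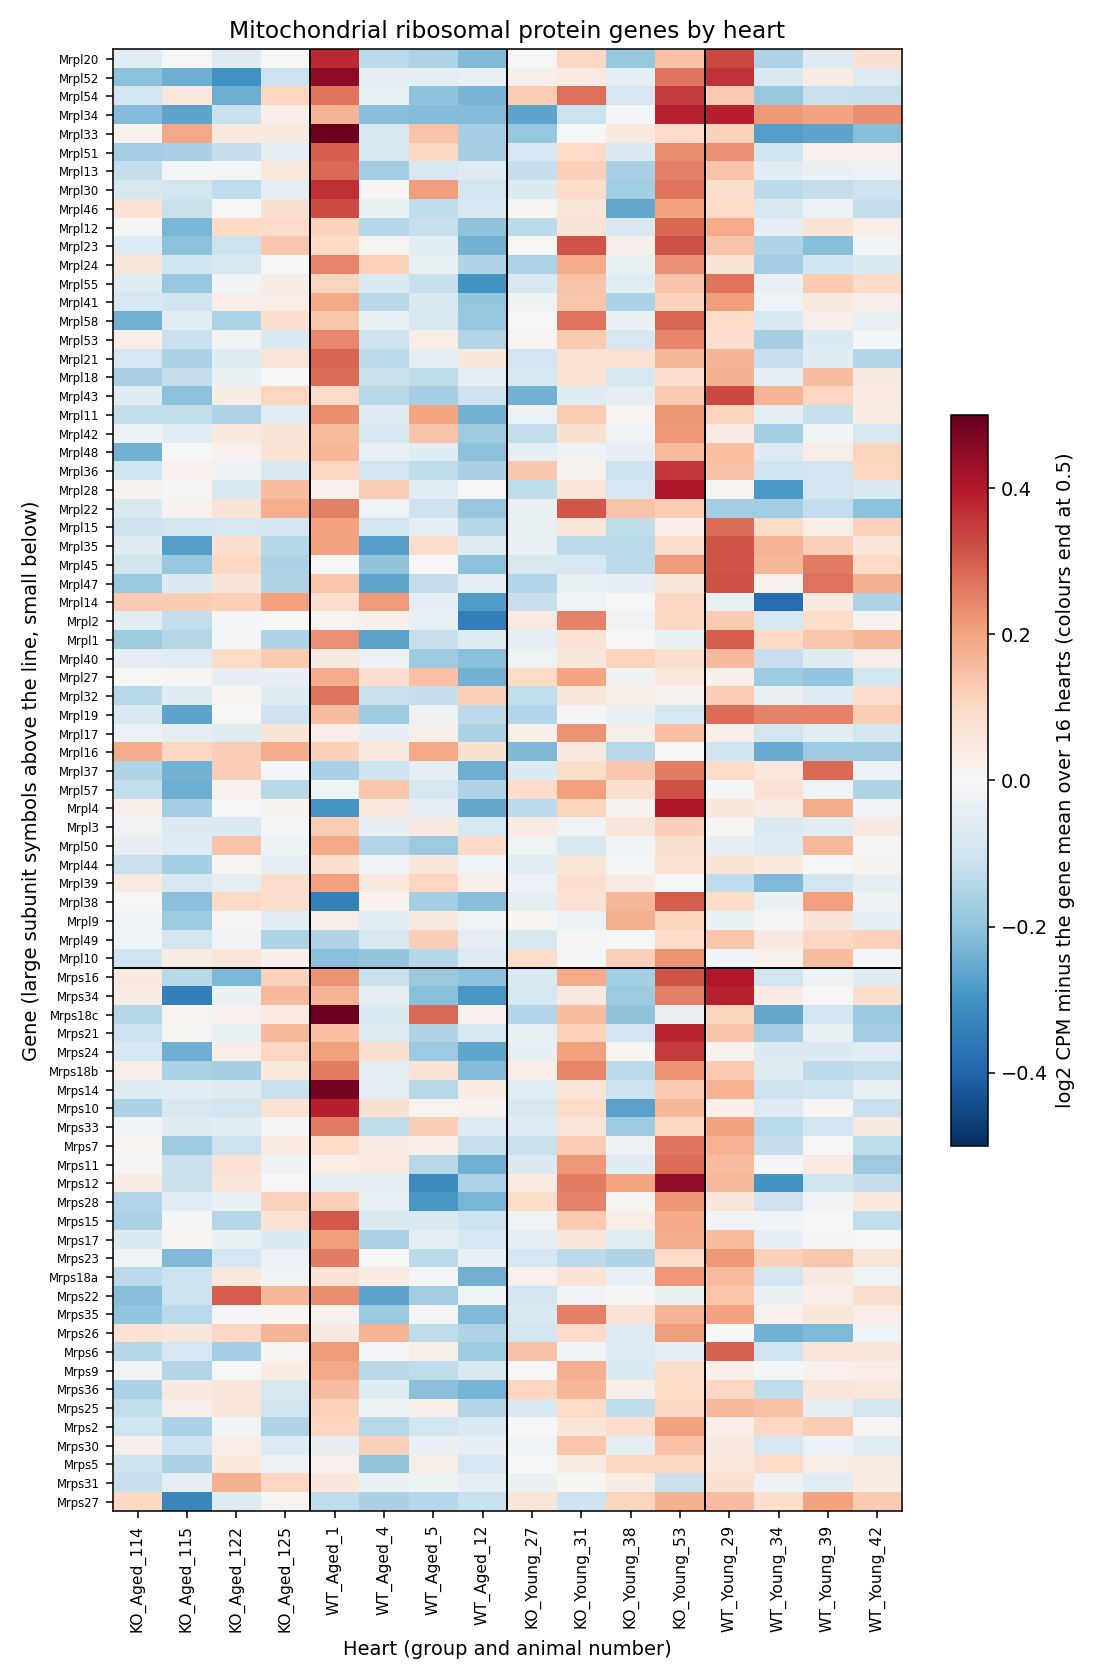
Deviation of each of the 78 genes from its own mean over 16 hearts, in log2 CPM, with groups divided by vertical lines and Mrpl and Mrps symbols by a horizontal one; within each subunit genes are ordered by their weight on the shared component. The columns of WT_Aged_1, KO_Young_53 and WT_Young_29 are red at most genes, and the other hearts of those groups are paler or blue.

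**Figure D3:**
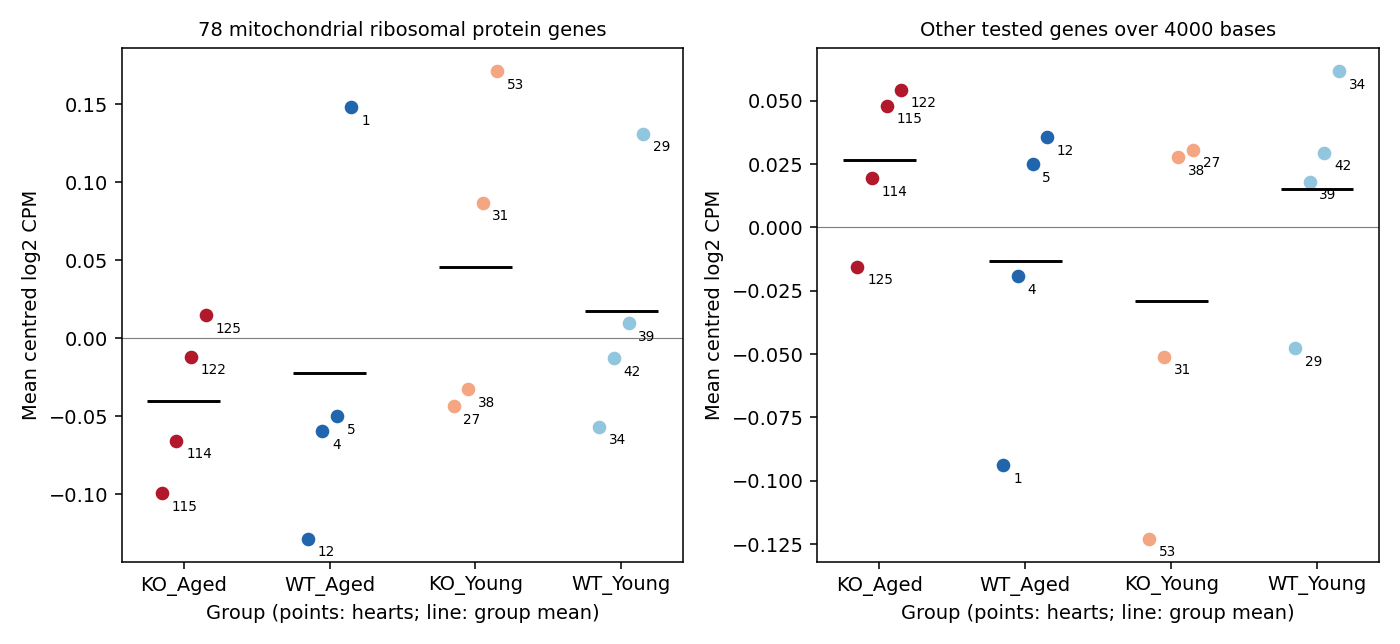
Mean deviation in log2 CPM of the 78 genes (left) and of other tested genes with an apparent transcript over 4000 bases (right), per heart and group; numbers are animals and lines are group means. KO_Young_53 and WT_Aged_1 are highest on the left, at 0.17 and 0.15, and lowest on the right, at -0.12 and -0.09.

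Loss of Armh4 in aged hearts was asked first. Between KO_Aged and WT_Aged hearts 0 of 78 members passed an adjusted p of 0.05 in edgeR's quasi-likelihood test. Of all 13373 genes tested 0.875% passed (0.165% higher and 0.710% lower), a share so low that 0 of 78 does not set the members apart. Of the members 3 had an unadjusted p under 0.05 in edgeR, and DESeq2 also called 0. The median log2 change was -0.02, against 0.00 for all genes tested. The 95% interval of every member lay within a 1.5-fold change in either direction, with a median SE of 0.09 on the log2 scale. Members lay above 0 in 31 cases and below 0 in 47, and KO_Aged and WT_Aged hearts were apart without overlap at 1 member (5.04% of all genes).

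That member was Mrpl52, a large subunit protein. It had 13.5, 13.2, 12.6 and 14.5 CPM in KO_Aged hearts, against 21.3, 15.1, 15.1 and 15.2 CPM in WT_Aged hearts. Every KO_Aged heart was below every WT_Aged heart, and WT_Aged_1 stood above the rest. The log2 change was -0.31 ± 0.13 (SE), with an adjusted p of 0.34 in edgeR's quasi-likelihood test. Mrpl10 had a log2 change of 0.16 ± 0.07 (adjusted p = 0.405, edgeR) and Mrpl30 had a log2 change of -0.22 ± 0.10 (adjusted p = 0.435, edgeR), and both overlapped between groups.

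In young hearts the question was the same. Of the 78 members 0 passed in edgeR between KO_Young and WT_Young hearts, against 0.269% of all genes tested (0.0523% higher and 0.217% lower), 13 had an unadjusted p under 0.05, and DESeq2 called 0. The median log2 change was 0.04, with 51 members above 0 and 27 below, and every 95% interval again lay within a 1.5-fold change. In all, 6 members did not overlap between groups, 4 higher and 2 lower in KO_Young hearts (8.49% of all genes tested did not overlap).

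The smallest p belonged to Mrpl19, whose bacterial homologue sits between the subunits. It had 35.4, 39.1, 38.4 and 36.9 CPM in KO_Young hearts, against 47.6, 46.6, 46.7 and 42.8 CPM in WT_Young hearts. The groups did not overlap, and the log2 change was -0.29 ± 0.08 (adjusted p = 0.156, edgeR). Its counts were fractional in all 16 libraries and its exons share 1962 bases with Gcfc2 on the other strand, so its level is uncertain.

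Mrpl22, a homologue of a protein that lines the bacterial exit tunnel, had 23.1, 29.5, 26.2 and 25.9 CPM in KO_Young hearts, against 21.004, 20.997, 21.8 and 20.6 CPM in WT_Young hearts. Again each KO_Young heart was above each WT_Young heart, with a log2 change of 0.31 ± 0.10 (adjusted p = 0.223, edgeR). Mrps12, a homologue of a protein at the bacterial decoding centre, had 27.7, 32.3, 30.9 and 36.8 CPM in KO_Young hearts, against 30.2, 21.9, 25.1 and 24.8 CPM in WT_Young hearts. WT_Young_29 lay inside the KO_Young range, and the log2 change was 0.32 ± 0.10 (adjusted p = 0.227, edgeR).

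Age in wild-type hearts gave the most calls. Between WT_Aged and WT_Young hearts 7 of 78 members passed, 2 higher and 5 lower with age, where 21.7% of all genes tested were called, 11.8% higher and 9.93% lower. The median log2 change of members was -0.04, against -0.01 for all genes tested, and 9 members did not overlap between WT_Aged and WT_Young hearts (21.7% of all genes tested). The largest difference of any member was -0.37, and 77 of 78 intervals lay within a 1.5-fold change. Of the 7, 6 are large subunit genes by symbol, as are 49 of all 78 members, and a difference between subunits was not tested.

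Mrpl16, a large subunit protein whose bacterial homologue lies near the site where tRNAs are bound, rose with age. It had 61.4, 58.4, 64.5 and 59.6 CPM in WT_Aged hearts, against 52.6, 47.5, 49.8 and 49.9 CPM in WT_Young hearts. Each WT_Aged heart was above each WT_Young heart. The log2 change was 0.29 ± 0.07 (adjusted p = 0.00656, edgeR), and the call held in all 17 alternative fits, with a highest adjusted p of 0.021 when any 1 heart was left out.

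Mrpl39, another large subunit protein, also rose. It had 86.7, 77.7, 81.0 and 76.8 CPM in WT_Aged hearts, against 69.0, 64.5, 70.4 and 72.7 CPM in WT_Young hearts, without overlap. The log2 change was 0.22 ± 0.07 (adjusted p = 0.0266, edgeR). Its counts were fractional in all 16 libraries, so reads may be shared with another locus.

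Mrpl45, the membrane anchor, fell with age. It had 85.1, 73.9, 84.7 and 73.7 CPM in WT_Aged hearts, against 105.7, 95.4, 101.6 and 90.9 CPM in WT_Young hearts. The groups were apart, and the log2 change was -0.31 ± 0.09 (adjusted p = 0.0185, edgeR). Mrps27, a pentatricopeptide protein of the small subunit, had 51.0, 49.8, 50.5 and 51.6 CPM in WT_Aged hearts, against 62.1, 59.0, 64.2 and 61.1 CPM in WT_Young hearts. The WT_Aged values lay within 2 CPM of each other, all below WT_Young, and the log2 change was -0.28 ± 0.08 (adjusted p = 0.0209, edgeR).

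Mrpl34, a short large subunit protein with a bacterial homologue, had 47.0, 36.0, 35.9 and 35.9 CPM in WT_Aged hearts, against 54.6, 48.5, 48.0 and 49.1 CPM in WT_Young hearts. WT_Aged_1 came close to the WT_Young hearts but stayed below them. The log2 change was -0.37 ± 0.12 (adjusted p = 0.0307, edgeR).

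Mrpl19 and Mrpl47 fell less clearly. Mrpl19 had 43.6, 34.6, 38.5 and 35.8 CPM in WT_Aged hearts, against the 4 WT_Young values given above, and WT_Aged_1 overlapped with them. Its log2 change was -0.27 ± 0.08 (adjusted p = 0.0238, edgeR). Mrpl47, a large subunit protein near the exit tunnel, had 26.7, 20.2, 22.3 and 23.4 CPM in WT_Aged hearts, against 30.3, 24.6, 29.3 and 27.4 CPM in WT_Young hearts. WT_Aged_1 again lay inside the WT_Young range, with a log2 change of -0.27 ± 0.10 (adjusted p = 0.0485, edgeR), and its exons share bases with Actl6a and Ndufb5 on the other strand. The comparison with WT_Aged hearts and the earlier one with KO_Young hearts share the WT_Young hearts, in which Mrpl19, Mrpl45 and Mrpl47 were high.

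The calls depend on single hearts. Without WT_Aged_1 there were 11 calls, 2 higher and 9 lower with age, and without WT_Young_29 there were 4, all higher. Without WT_Aged_4 there were 4, 3 higher and 1 lower, and without WT_Aged_12 there were 6, 5 higher and 1 lower. Without WT_Young_34 or WT_Young_42 there were 4 and without WT_Young_39 there were 2, as against 7 with all hearts. Of the 7 genes, Mrpl16 alone was called whichever heart was left out; the adjusted p of the others reached 0.0503 to 0.169 in the fits that lost them. On the deposited FPKM scale (limma on log2 of FPKM plus 1) 3 members were called, 3 higher and 0 lower, and 2 of these, Mrpl16 and Mrpl39, were among the 7. Without the 4 hearts of lowest long-transcript score Mrpl39 was no longer called (adjusted p = 0.0691, edgeR). With the long-transcript score as a covariate, chosen after seeing the data, 16 were called, 2 higher and 14 lower.

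Ageing in knockout hearts gave 1 call of 78, lower in KO_Aged than in KO_Young hearts, against 7.63% of all genes tested, 5.03% higher and 2.60% lower. The members leaned lower, with 69 below 0 and 9 above, against 6922 below and 6451 above for all genes tested. Other lists leaned the same way: 78 of 85 nuclear-encoded respiratory chain genes (median -0.11) and 72 of 81 cytosolic ribosomal proteins (median -0.07) were below 0. The median log2 change of members was -0.09 against -0.01 for all genes tested. Without the 4 hearts of lowest long-transcript score, of which 2 are KO_Young and 0 are KO_Aged, the median was 0.000556; those KO_Young hearts also have the highest member scores of their group, so leaving them out moves the median upward by construction. In all, 6 members did not overlap between KO_Aged and KO_Young hearts, against 15.7% of all genes tested.

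The called gene was Mrpl57, a small large-subunit protein specific to mitochondria. It had 19.6, 18.0, 21.6 and 19.3 CPM in KO_Aged hearts, against 22.7, 24.6, 22.6 and 26.6 CPM in KO_Young hearts, without overlap. The log2 change was -0.30 ± 0.09 (adjusted p = 0.0469, edgeR). The call was lost in 13 of 17 alternative fits; leaving out a heart kept it only for KO_Aged_122 (adjusted p = 0.0419, edgeR), and the others gave 0.0508 to 0.151. Without the 4 hearts it was 0.315. In wild-type hearts Mrpl57 had a log2 change of 0.00 ± 0.09 with age.

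Mrpl16 had 64.2, 60.7, 61.5 and 64.3 CPM in KO_Aged hearts, against 48.3, 58.2, 51.3 and 56.5 CPM in KO_Young hearts. Each KO_Aged heart was above each KO_Young heart, as in wild type, but the log2 change of 0.23 ± 0.07 missed the threshold (adjusted p = 0.058, edgeR). It passed with DESeq2 (adjusted p = 0.0259), on both FPKM scales, without the 4 hearts and with the long-transcript covariate. Mrps2, a homologue of a bacterial small subunit protein, had 36.5, 35.04, 38.8 and 35.3 CPM in KO_Aged hearts, against 39.1, 40.8, 41.6 and 45.0 CPM in KO_Young hearts. It did not overlap between groups and had a log2 change of -0.19 ± 0.07 (adjusted p = 0.128, edgeR).

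Whether ageing acted differently in the 2 genotypes was tested directly, as the log2 change with age in knockouts less the one in wild types. No member passed in edgeR (0 of 78, against 0.464% of all genes tested, 0.127% higher and 0.336% lower), 3 had an unadjusted p under 0.05, and DESeq2 called 0. The difference was -0.24 ± 0.10 for Mrpl39 (adjusted p = 0.313, edgeR), -0.30 ± 0.13 for Mrpl57 (adjusted p = 0.345, edgeR) and -0.32 ± 0.14 for Mrpl30 (adjusted p = 0.368, edgeR). The median over members was -0.05. This median was 0.05 without the 4 hearts, which removes the same KO_Young hearts and also WT_Aged_1 and WT_Young_29, and 0.08 with the covariate. Leaving out WT_Aged_1 alone gave -0.01 and leaving out WT_Young_29 alone gave -0.10. So Mrpl39 and Mrpl57, each called in 1 genotype, were not shown to differ between genotypes.

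**Figure D4:**
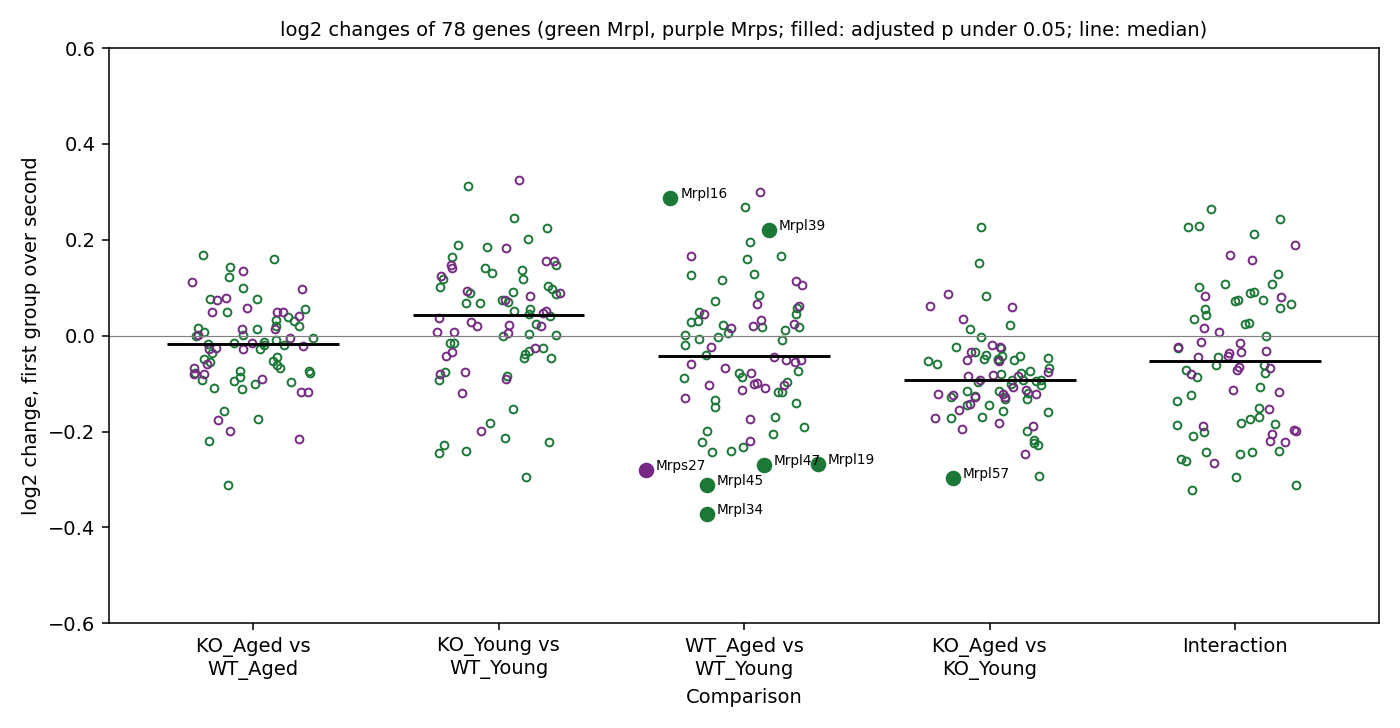
The log2 change of each of the 78 genes in the 4 comparisons and in the interaction, first group over second; open dots did not pass, filled and named dots had an adjusted p under 0.05 in edgeR, and black lines are medians. Filled dots stand in the WT_Aged vs WT_Young column, 2 above and 5 below 0, and in the KO_Aged vs KO_Young column, where Mrpl57 is at -0.30.

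**Figure D5:**
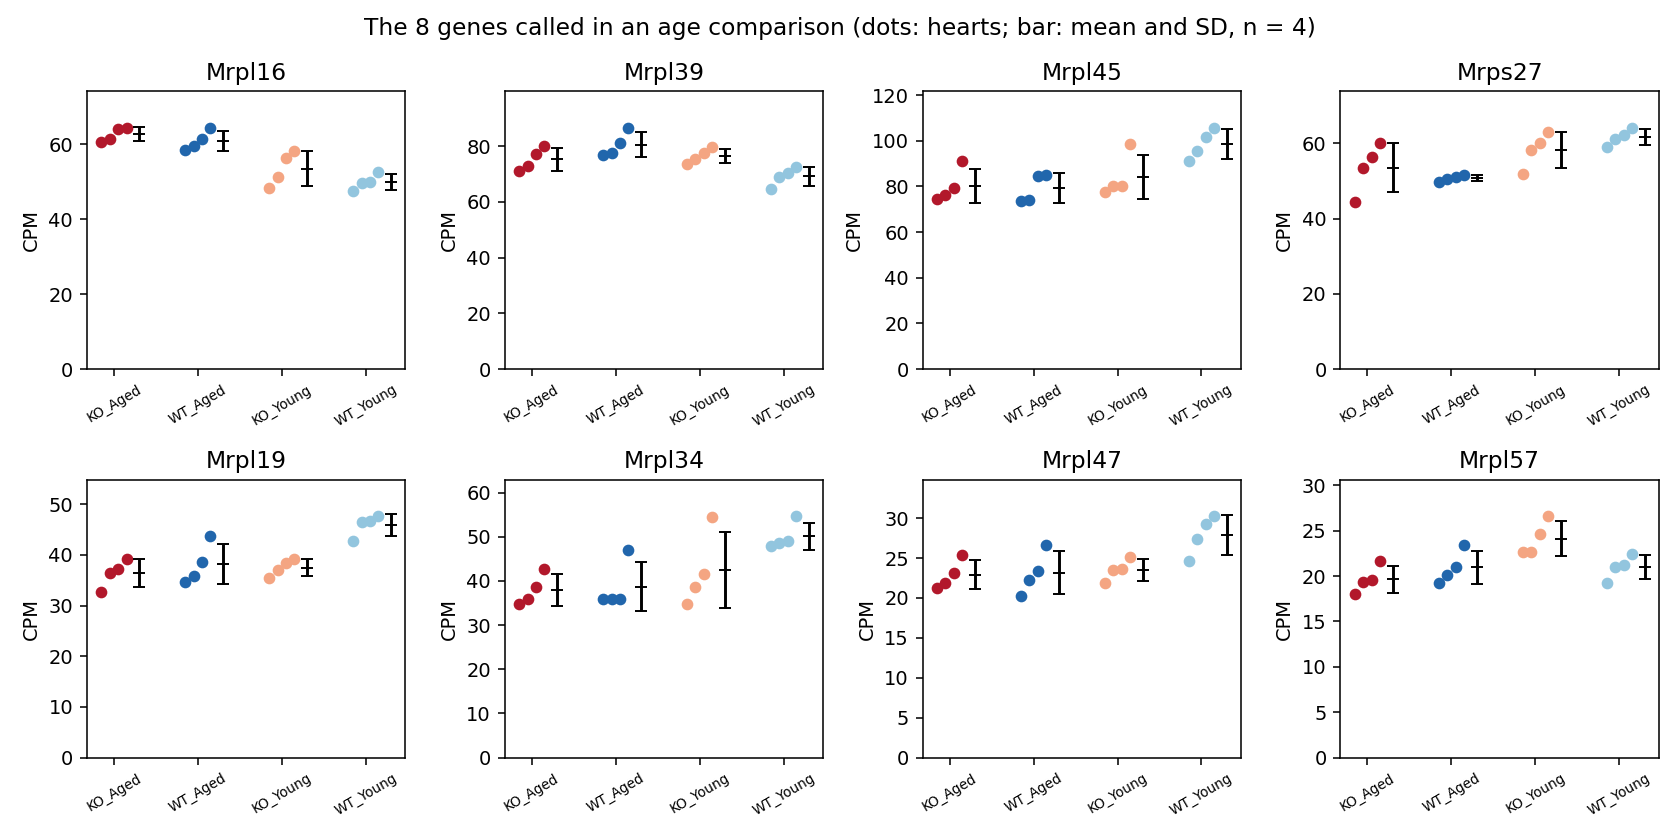
CPM of the 8 genes called in either age comparison, with 1 dot per heart and the mean and SD (n = 4) beside each group. Mrpl16 is higher in both aged groups than in both young groups, and Mrpl34, Mrpl45, Mrps27, Mrpl19 and Mrpl47 are highest on average in WT_Young hearts.

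The other parts of mitochondrial translation were read from lists chosen with earlier results known. Between WT_Aged and WT_Young hearts 0 of 15 tested translation factors were higher and 5 were lower; over all genes tested, 11.8% were higher and 9.93% lower. Mtif2, the initiation factor, fell with a log2 change of -0.44 ± 0.08 (adjusted p = 0.000523, edgeR). It had 61.9, 54.8, 57.2 and 64.2 CPM in WT_Aged hearts, against 74.0, 85.6, 85.9 and 76.8 CPM in WT_Young hearts. Tufm, the elongation factor that brings tRNAs, changed by -0.32 ± 0.08 (adjusted p = 0.00875, edgeR). Mtrf1l, a release factor, changed by -0.38 ± 0.12 (adjusted p = 0.0227) and Oxa1l, the inner membrane insertase that receives new chains, by -0.27 ± 0.08 (adjusted p = 0.0265), both in edgeR.

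Of 25 tested assembly factors 0 were higher and 4 were lower in WT_Aged hearts. Mrm1, which methylates the large ribosomal RNA, changed by -0.45 ± 0.10 (adjusted p = 0.00276, edgeR). Mettl17, an assembly factor of the small subunit, changed by -0.36 ± 0.09 (adjusted p = 0.00638, edgeR). It had 11.2, 13.2, 13.1 and 13.0 CPM in WT_Aged hearts, against 15.5, 16.4, 17.2 and 15.8 CPM in WT_Young hearts, without overlap. The GTPase Noa1 and the methyltransferase Mrm3 also fell, by 0.30 and 0.32 on the log2 scale.

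Of 22 mitochondrial aminoacyl-tRNA synthetases, which charge tRNAs, 5 were lower and 0 were higher; the 4 with the smallest p were Lars2 (-0.37), Cars2 (-0.24), Ears2 (-0.28) and Yars2 (-0.31 on the log2 scale). Among 19 genes of mitochondrial transcription and RNA processing 2 were lower, a share near that of all genes tested: Fastk at -0.30 ± 0.08 (adjusted p = 0.00949, edgeR) and the helicase Supv3l1 at -0.25 ± 0.08 (adjusted p = 0.0259, edgeR). Among 13 regulators of mitochondrial biogenesis 4 were lower: the coactivator Pprc1 at -0.50, Perm1 at -0.33, the nuclear receptor Esrra at -0.26 and Yy1 at -0.23. The median log2 change was -0.16 for translation factors, -0.11 for assembly factors, -0.16 for synthetases, -0.12 for transcription and processing and -0.17 for regulators, beside -0.04 for the ribosomal proteins and -0.01 for all genes tested. The difference between these lists and the ribosomal proteins was not tested.

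Of 85 tested nuclear-encoded respiratory chain genes 1 was lower in WT_Aged hearts, a share below that of all genes tested: Uqcrc1 of complex III at -0.29 ± 0.09 (adjusted p = 0.0197, edgeR). Of 81 cytosolic ribosomal proteins 3 were higher, Rpl38, Rps13 and Rps27, and the muscle form Rpl3l was lower at -0.40 ± 0.11 (adjusted p = 0.0156, edgeR). The 5 mitochondrial ribosomal proteins listed under other names, such as Dap3 and Ptcd3, gave 0 calls. Of the 25 calls in these lists, Mtif2, Mettl17, Mrm1, Fastk and Rpl38 were called in all 17 alternative fits. Leaving out 1 heart lost 3 of the 25 without WT_Young_29, 4 without WT_Aged_5, 7 without WT_Aged_4, 11 without WT_Young_34, 12 without WT_Aged_12 or WT_Young_42, 14 without WT_Aged_1 and 17 without WT_Young_39, with adjusted p of 0.0502 to 0.18 in edgeR. With only the WT_Aged and WT_Young hearts in the fit 19 of the 25 were lost, on log2(FPKM + 1) 12, on log2(FPKM + 0.1) 13 and without the 4 hearts of lowest long-transcript score 9, with adjusted p of up to 0.23.

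Markers of several cell types moved with age in the same hearts. All 7 macrophage markers, such as Adgre1 and Csf1r, were higher in WT_Aged hearts, with summed levels of 334.2 to 456.7 CPM in WT_Aged hearts and 116.6 to 163.7 CPM in WT_Young hearts. All 5 erythroid markers were higher as well, with 1052 to 2292 CPM in WT_Aged hearts and 492.2 to 719.4 CPM in WT_Young hearts. Among cardiomyocyte markers 2 of 10 were lower in WT_Aged hearts, Myh6 and Actc1, and 9 of 10 had a log2 change below 0. Among 6 smooth muscle and pericyte markers Rgs5 was lower, with a median log2 change of -0.58 and 6 of 6 below 0. Of 7 endothelial markers Cdh5 and Tie1 were lower, but 4 had a log2 change above 0 and 3 below, with a median of 0.02. Of 7 fibroblast markers Col1a1 and Col1a2 were lower, but 4 were above 0 and 3 below, with a median of 0.04. All 3 tested neutrophil markers and both tested T and NK cell markers were higher. The 5 tested atrial markers all had a log2 change below 0 between WT_Aged and WT_Young hearts, with a median of -1.52, and 0 were called. In KO_Aged hearts macrophage markers summed to 261.9 to 265.3 CPM, against 140.7 to 175.6 CPM in KO_Young hearts, and 6 of 7 were called higher. Of 10 cardiomyocyte markers 1 was called lower in KO_Aged than in KO_Young hearts, Myl2. In all 8 were below 0 and 2 above, with a median log2 change of -0.18. All 7 endothelial markers had a log2 change below 0 between KO_Aged and KO_Young hearts, and 2 were called, Tie1 and Tek. In bulk tissue, fewer cells of a type and less RNA per cell cannot be told apart, and the part of these shifts in the changes above was not tested.

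Age in knockout hearts was read from the same lists, where 5.03% of all genes tested were higher and 2.60% lower. The difference from wild type in the number of calls was not tested. Tufm was lower in KO_Aged than in KO_Young hearts (-0.28 ± 0.08, adjusted p = 0.0438, edgeR), 1 of 15 translation factors. Mettl17 (-0.35), the pseudouridine synthase Rpusd4 (-0.34) and the GTPase Mtg2 (-0.31) were lower among 25 assembly factors, and Cars2 (-0.31) and Kars (-0.29 on the log2 scale), which serves both cytosol and mitochondria, among 22 synthetases. Myc was higher, with 3.90, 4.22, 4.11 and 4.29 CPM in KO_Aged hearts, against 2.52, 2.14, 2.72 and 2.84 CPM in KO_Young hearts, and Perm1 fell by 0.30 on the log2 scale. Ndufv1 of complex I (-0.33) and Uqcrc1 (-0.29) were the 2 respiratory chain genes lower among 85. Leaving out 1 heart lost 3 to 9 of these 10 calls: 3 without KO_Young_27, 4 without KO_Aged_114, 5 without KO_Aged_125, 7 without KO_Young_31 or KO_Young_38, 8 without KO_Aged_122 or KO_Young_53 and 9 without KO_Aged_115, with adjusted p of 0.0523 to 0.166 in edgeR. Without the 4 hearts of lowest long-transcript score 9 of the 10 were lost, with adjusted p of 0.0909 to 0.327, and 6 of the 10 were lost on both FPKM scales.

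Between genotypes 0 genes of these mitochondrial lists, the respiratory chain list and the cytosolic ribosomal list were called at either age in edgeR. Over these lists, from 0 to 14 genes of a list had an unadjusted p under 0.05. The 14 were in the respiratory chain list in young hearts, where 82 of 85 genes were above 0 with a median log2 change of 0.12. The mean score over these genes was 0.22 in KO_Young_53, 0.16 in KO_Young_31, -0.02 in KO_Young_38 and -0.03 in KO_Young_27. It was 0.07, -0.16, -0.05 and -0.05 in WT_Young hearts, so the groups overlapped. In aged hearts 78 of 81 cytosolic ribosomal proteins were below 0, with a median of -0.15 and 9 with an unadjusted p under 0.05. The cytosolic ribosomal protein score was 0.38 in WT_Aged_1, against 0.05 in WT_Aged_4, 0.01 in WT_Aged_5 and -0.13 in WT_Aged_12. KO_Aged hearts had -0.13, 0.006, -0.15 and 0.08, inside the WT_Aged range or near its low end. DESeq2 called at most 1 gene of a list. For the interaction, 76 of 81 cytosolic ribosomal proteins and 77 of 85 respiratory chain genes were below 0. Genes of a list share the same hearts, so such counts are not independent, and the part of single hearts in them was not tested. Of all genes tested 0.464% were called for the interaction, so a single call over all these lists does not set them apart. That gene was Mrm1, 1 of 25 tested assembly factors, at 0.65 ± 0.14 (adjusted p = 0.0438, edgeR). It had 26.1, 24.0, 30.2 and 31.4 CPM in KO_Aged hearts, 23.3, 19.7, 23.9 and 20.3 CPM in WT_Aged hearts, 21.3, 24.9, 24.0 and 26.9 CPM in KO_Young hearts and 30.1, 28.9, 32.2 and 28.3 CPM in WT_Young hearts. KO_Aged hearts were above WT_Aged hearts and KO_Young hearts were below WT_Young hearts without overlap. This call was lost in 10 of 16 fits that left out 1 heart, with adjusted p of 0.0694 to 0.113 in edgeR for KO_Aged_122, KO_Aged_125, KO_Young_27, KO_Young_31, KO_Young_38, WT_Aged_4, WT_Young_29, WT_Young_34, WT_Young_39 and WT_Young_42. It was also lost without the 4 hearts of lowest long-transcript score (adjusted p = 0.137, edgeR) and with the long-transcript covariate (adjusted p = 0.053, edgeR), and held in 12 of 24 alternative fits.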

How the data were processed

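RNA was measured in 16 mouse hearts, 4 per group. The deposited gene table holds expected counts, which need not be whole, and the authors' second table holds FPKM, scaled by library size and gene length, per the file headers. The tools HISAT and Bowtie2 and the genome build GRCm39 are given per the submitters' processing notes; the counting program, its use of strand and its handling of shared reads are not given in the sources used here. Counts were rounded, filtered with filterByExpr and scaled by TMM, and 13373 genes were tested in edgeR 4.0.16 (R 4.3.3) by the robust quasi-likelihood F test in 1 fit of 4 groups with 12 residual degrees of freedom; p-values were adjusted by Benjamini-Hochberg over all genes, and "called", "higher", "lower", "rose" and "fell" with a call mean an adjusted p under 0.05. CPM uses TMM-scaled library sizes and log2 CPM a prior count of 2. Fits were tested on simulated data, with genes drawn independently and planted changes larger than those called among members. That run does not address changes of the size called here or members that move together. Alternatives used DESeq2 1.42.0 and limma 3.58.1. The members and lists were chosen with earlier results of these data known. Named members were those called, the 3 of smallest p where fewer than 3 were called, the 5 highest and 3 lowest in FPKM, Mrps36, Mrps18a, Mrps18b, Mrps18c and Mrpl45; from each other list up to 4 called genes per comparison are given values. Promoters and exon overlaps come from GRCm38 annotation, a build other than that of the counts; 15 members share exon bases with another gene, 14 of them on the other strand. Of 78 members 10 had fractional counts, in all 16 libraries for Mrpl18, Mrpl19, Mrpl39, Mrpl43 and Mrps25, which are uncertain.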

Additional observations from a re-analysis of the deposited data

Results flagged for a closer look

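Within groups of 4 hearts, single hearts stood apart from the other 3 by Dixon's criterion at 8 of 100 combinations of gene and group. Independent values would give about 5 by chance. The genes move together over the same hearts and were picked with these data known, so 8 is given as a description. WT_Aged_1 was high for Mrpl52 (21.3 CPM, against 15.1 to 15.2 CPM in the other WT_Aged hearts) and for Mrpl34 (47.0 CPM, against 35.9 to 36.0 CPM). WT_Young_29 was high for Mrpl30 (165.6 CPM, against 142.1 to 145.1 CPM in the other WT_Young hearts), for Mrpl34 (54.6 CPM, against 48.0 to 49.1 CPM) and for Mrpl33 (60.4 CPM, against 46.0 to 48.0 CPM). KO_Young_53 was high for Mrpl45 (98.4 CPM, against 77.5 to 80.3 CPM in the other KO_Young hearts). KO_Aged_115 was high for Mrpl33 (63.7 CPM, against 56.4 to 57.4 CPM in the other KO_Aged hearts) and KO_Aged_114 was low for Mrps18c (25.8 CPM, against 28.7 to 29.3 CPM).

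Mrm1, the ribosomal RNA methyltransferase, passed the test for a difference between genotypes in its change with age: the log2 change with age in knockouts less the one in wild types was 0.65. It was the 1 gene called among the mitochondrial, respiratory chain and cytosolic ribosomal lists, where 0.464% of all genes tested were called. The call held in 12 of 24 alternative fits; it was lost without the 4 hearts of lowest long-transcript score (adjusted p = 0.137, edgeR) and with the long-transcript covariate (adjusted p = 0.053, edgeR).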

How the results depend on the processing

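No paired analysis was possible because the groups share no animal numbers. The change of a called gene kept its sign in each alternative run. Calls among members with age in wild-type hearts numbered 7; they were 3 on log2(FPKM + 1), 3 on log2(FPKM + 0.1), 4 with only the groups compared in the fit, 16 with the long-transcript score as covariate, and 2 to 11 when 1 heart was left out. In knockout hearts the call of 1 became 2 with DESeq2, 0 without a filter on low counts, 0 with only the groups compared in the fit, and 0 to 1 when 1 heart was left out. The median change with age in knockout hearts was 0.000556 without the 4 hearts of lowest long-transcript score, and the median interaction was 0.046 without them and 0.0786 with the covariate; these alternatives, and the fit without the robust spread estimate, were chosen after seeing the data. The causes were not tested. With 4 hearts per group the median SE of a member was 0.09 on the log2 scale, and the smallest called change was 0.22 (Mrpl39); a change of -0.29 (Mrpl19 between genotypes in young hearts) did not pass.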
